A study of Mus musculus with 140 samples.

Results

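Elovl3, which encodes a fatty acid elongase of the endoplasmic reticulum, was followed in mouse liver over 2 days of constant darkness in wild-type (WT) mice and in 2 mutants of the circadian clock. It is 1 gene of 13236 gene symbols found across the tables of the 3 genotypes, and it was chosen by its large 24-hour rhythm in WT, that is, by its counts over time in the WT libraries. Its course over time in WT is therefore described without a test, and tests were kept to the mutants, to the mean levels and to the spread between samples. The gene lies on the forward strand of chromosome 19 (mm10, chr19:46131897-46135694) and has 2 annotated transcripts of 4 exons each. The last 10 bases of the longer transcript overlap Pitx3 on the other strand, which was not analysed here.

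The animals were 3-month-old male mice, either WT, Per1,2-/- (called PerDKO, lacking the Period genes Per1 and Per2) or Bmal1-/- (called BMALKO). BMALKO mice lack in the whole body the gene that is listed in the tables as Arntl. The labels give C57BL/6 as the strain of all 3 genotypes, whereas the methods of the study name it for WT only and give the Bmal1-/- line as B6.129-Arntl tm1Bra/J. They were kept for 2 weeks in a light-dark cycle and then in constant darkness with free access to food, and livers were taken every 4 hours from circadian time (CT) 0 to CT44. Each time point held 4 samples, lettered A to D, except for 3 samples at CT8 and CT20 of PerDKO and at CT16 and CT20 of BMALKO. This gave 48 WT, 46 PerDKO and 46 BMALKO libraries, 140 in all, each made by bulk MARS-seq, which counts molecules at the 3' end of a transcript. The protocol text attached to BMALKO names both constant darkness and a continued light-dark cycle. For protein blots of livers from these time courses the study describes several mice per time point, but the labels of the RNA libraries do not say whether the samples of a time point came from separate animals, so p-values measure the spread between these samples.

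In mammals, very long chain fatty acids are built by a cycle of 4 reactions at the endoplasmic reticulum. An elongase of the ELOVL family condenses an activated fatty acid with malonyl-CoA and sets the rate and the substrate range, and Hsd17b12, the Hacd dehydratases and Tecr complete the cycle. ELOVL3 acts mainly on saturated and monounsaturated chains, and is known from brown fat, sebaceous glands and liver. In mouse liver the gene is known to be under circadian control, with repression by the nuclear receptor REV-ERB alpha, and to be higher in males than in females.

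The libraries held between 1442278 and 5643470 counted molecules, and the 3 tables held 11727 genes for WT, 12176 for PerDKO and 11608 for BMALKO. Levels are given as CPM (the count of the gene divided by the total of the library and scaled to the same total for all), which makes libraries of unequal depth comparable but does not correct for other differences between the tables. Each genotype was deposited as a table of its own, so genotype, table and processing run cannot be told apart in any comparison of levels between genotypes. In bulk liver, fewer cells of a type and less RNA per cell cannot be told apart either. The 8 hepatocyte markers summed to between 54929 and 123614 CPM in every library, with a median of 97988 CPM in WT, 103401 CPM in PerDKO and 67223 CPM in BMALKO. Per1 and Per2 still had counts in all 46 PerDKO libraries and Arntl in all 46 BMALKO libraries. A 3' tag can lie outside a deleted part of a gene, so these counts do not check the genotypes.

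The 5 libraries farthest from the median of their time point, by 2.66 to 4.00 in log2(CPM + 1) of Elovl3, were sample A of WT at CT44, sample C of BMALKO at CT32, and in PerDKO samples C of CT4, C of CT8 and A of CT12. The next library deviated by 2.37. All 5 had little Elovl3 for their genotype, and they were picked for repeat runs after their values had been seen. They were also low in Car3, a gene chosen after its values had been seen. Its r with Elovl3 was 0.55 in WT, 0.91 in PerDKO and 0.68 in BMALKO, so its low values are no separate evidence on these libraries. This gene, of an abundant cytosolic carbonic anhydrase, had 548.2 CPM in that WT library against 2841 to 4019 CPM in the other 3 samples of the time point. In the BMALKO library it had 298.3 CPM against 2490 to 4272 CPM. The PerDKO libraries had 348.2 CPM at CT4, 507.2 CPM at CT8 and 1230 CPM at CT12, where the other samples had 3463 CPM or more. The hepatocyte marker sum was 91215 CPM in the WT library, where all WT libraries had 80860 to 117465 CPM. It was 87782 to 118260 CPM in the 3 PerDKO libraries (77567 to 123614 CPM over the genotype). In the BMALKO library it was 64382 CPM (54929 to 80041 CPM over the genotype). The ranges of the genotypes include these libraries. Beside many results that rest on these libraries, the values without them are given too. Samples A and D of PerDKO at CT16 were similarly low in Elovl3, with 5.32 and 6.72 CPM. They deviated less from the median of their own time point. They therefore stay in every value given without the 3 PerDKO libraries that stood apart, and can still weigh on r there.

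In WT, Elovl3 was high around subjective dawn and low around subjective dusk on both days. The 4 samples had 915.5, 493.7, 714.0 and 465.0 CPM at CT0, in the order A to D. At CT4 they had 720.4, 534.1, 687.7 and 608.4 CPM. The fall began by CT8, when the values were 462.6, 289.8, 190.3 and 163.2 CPM, and the range of CT8 lay below that of CT0. Trough values followed at CT12, with 126.5, 72.3, 100.6 and 66.6 CPM. They stayed low at CT16, with 72.2, 121.3, 63.5 and 97.3 CPM. The 8 samples of CT12 and CT16 all lay below the 8 samples of CT8 and CT20. By CT20 the gene had risen to 490.9, 551.6, 282.7 and 388.3 CPM.

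The second day in WT again had its high values around subjective dawn and its low values around subjective dusk, but the low hours differed. The 4 samples of CT24 had 798.4, 1037.0, 817.9 and 804.7 CPM, the highest mean of the series in WT. Values of 630.3, 758.0, 583.8 and 549.4 CPM were counted at CT28, and of 207.1, 300.0, 216.1 and 149.8 CPM at CT32. The lowest mean came at CT36, when the samples had 83.8, 47.0, 54.5 and 55.0 CPM. At CT40 they had 121.9, 158.5, 144.9 and 176.3 CPM, all above the samples of CT36, whereas CT12 and CT16 had overlapped on the first day. The last time point was the most uneven, since at CT44 samples B, C and D had 532.7, 338.6 and 233.7 CPM and sample A had 23.0 CPM. That library, with 70 counted molecules of Elovl3 (exact Poisson interval 17.9 to 29.0 CPM, counting error only), was the lowest of all 48 WT libraries.

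Across WT the gene averaged 364.6 ± 280.1 CPM (SD, n = 48), with a median of 286.2 CPM. The mean of a time point reached 864.5 CPM at CT24 and 60.1 CPM at CT36, a ratio of 14.4. In the order of the 12 time-point means, from CT24 through CT0, CT4, CT28, CT20, CT44, CT8, CT32, CT40, CT12 and CT16 to CT36, every pair of neighbours had overlapping ranges. A cosine of 24 hours fitted to counts divided by size factors peaked at 1.28 h after subjective dawn, with an amplitude of 0.961 of the mean, the rank of 10 among 9258 genes. Time points held 81.6% of the variance of the log2 level. The median was 40.8% over the 4308 WT genes with a mean of at least 20 CPM. These values restate what the gene was chosen for.

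**Figure D1:**
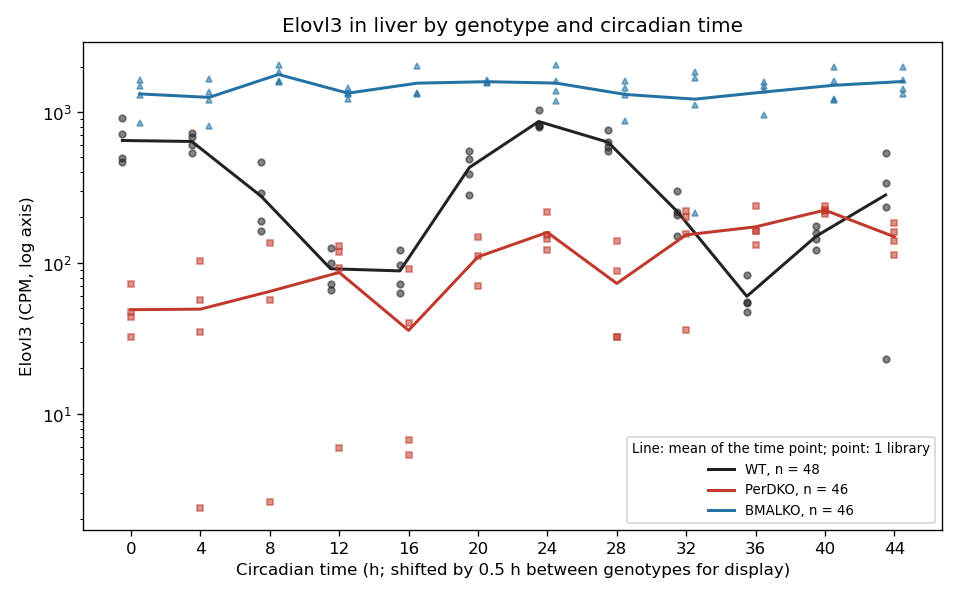
Elovl3 in every library (points, CPM on a log axis) against circadian time in hours, with the mean of each time point (lines) for WT (black, n = 48), PerDKO (red, n = 46) and BMALKO (blue, n = 46). WT means ran from 60.1 to 864.5 CPM, PerDKO means from 35.7 to 223.7 CPM and BMALKO means from 1216 to 1772 CPM.

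In PerDKO, Elovl3 stayed far below the WT peak at every time point and varied widely between samples. The 4 samples of CT0 had 72.4, 44.1, 32.4 and 47.1 CPM. At CT4 samples A, B and D had 56.9, 34.7 and 103.7 CPM and sample C had 2.38 CPM. A similar gap was seen at CT8, where samples A and B had 56.5 and 135.2 CPM and sample C had 2.59 CPM. These 2 libraries rested on 10 and 12 counted molecules, with exact Poisson intervals of 1.14 to 4.38 CPM and 1.34 to 4.53 CPM. At CT12 sample A had 5.96 CPM and samples B, C and D had 130.1, 117.6 and 92.3 CPM. At CT16 samples A and D had 5.32 and 6.72 CPM and samples B and C had 40.0 and 90.9 CPM. All 5 of the low values belonged to the first day, and all 5 lay below the lowest WT library. The 3 samples of CT20 had 147.7, 70.0 and 111.5 CPM.

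On the second day the PerDKO samples were higher on average. At CT24 they had 217.6, 152.7, 144.9 and 122.3 CPM, and at CT28 they had 32.1, 139.6, 32.2 and 88.7 CPM. Sample A of CT32 had 36.0 CPM, whereas samples B, C and D had 220.3, 202.8 and 154.5 CPM. The lowest library of the second day, A of CT28, was thus above the WT minimum of 23.0 CPM. Counts at CT36 came to 162.0, 238.0, 131.1 and 162.4 CPM. The narrowest time point was CT40, with 220.7, 238.1, 212.2 and 223.9 CPM, and CT44 followed with 184.8, 160.5, 112.1 and 138.7 CPM.

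Over the 46 PerDKO libraries the level was 111.6 ± 71.8 CPM (SD), with a median of 114.8 CPM. Time-point means ran from 223.7 CPM at CT40 down through CT36, CT24, CT32, CT44, CT20, CT12, CT28, CT8, CT4 and CT0 to 35.7 CPM at CT16, and neighbours in this order overlapped throughout.

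In BMALKO, Elovl3 was high at all hours. At CT0 the samples had 840.5, 1483, 1638 and 1305 CPM, and at CT4 they had 1350, 808.1, 1197 and 1641 CPM. The highest time point was CT8, with 1830, 1587, 2060 and 1611 CPM, an hour at which the gene was falling in WT. Values of 1337, 1321, 1446 and 1223 CPM were counted at CT12. The 3 samples B, C and D had 1313, 2010 and 1332 CPM at CT16 and 1622, 1563 and 1574 CPM at CT20. On the second day, CT24 gave 1377, 1608, 1178 and 2049 CPM. The lowest of these values was 808.1 CPM, in sample B of CT4.

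At CT28 the BMALKO samples had 1615, 868.7, 1302 and 1437 CPM. Samples A, B and D of CT32 had 1110, 1686 and 1850 CPM, and sample C had 215.6 CPM, the lowest of the genotype. At CT36 the values were 1406, 1580, 950.6 and 1489 CPM. Apart from sample C of CT32, no BMALKO library was below the WT mean. The last 2 time points held 1592, 1219, 1996 and 1199 CPM at CT40 and 1639, 1988, 1417 and 1323 CPM at CT44.

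The 46 BMALKO libraries averaged 1439 ± 357 CPM (SD), with a coefficient of variation of 24.8% against 76.8% in WT, and 41 of the 46 lay above the highest WT library. Time-point means lay between 1772 CPM at CT8 and 1216 CPM at CT32, a ratio of 1.46. In descending order they were CT8, CT44, CT20, CT24, CT16, CT40, CT36, CT12, CT0, CT28, CT4 and CT32, with overlap between all neighbours.

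Averaged over the 12 time points, Elovl3 fell in PerDKO and rose in BMALKO. The log2 fold change was -1.50 (SE 0.16) for PerDKO against WT, with an adjusted p of 6.8e-15 in edgeR's quasi-likelihood test over 8473 genes. For BMALKO against WT it was 2.45 (SE 0.16, adjusted p = 4.48e-28), and for PerDKO against BMALKO it was -3.95 (adjusted p = 3.1e-41). A call at an adjusted p under 0.05 was common in these comparisons. It was made for 70.6% of genes in PerDKO against WT (35.6% higher and 35.1% lower), for 76.8% in BMALKO against WT (37.4% higher and 39.5% lower) and for 75.3% in PerDKO against BMALKO (38.5% higher and 36.8% lower). The test averages log2 levels of the time points, so a gene that swings widely in WT enters with its troughs at full weight. With genotype means in place of time-point means, Elovl3 differed by -1.71 and 1.99 in the first 2 comparisons.

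Compared at the same hour, the direction in BMALKO was uniform and that in PerDKO was not. BMALKO lay above WT without overlap at 10 of 12 time points, most at CT36, by 22.6-fold, and least at CT24, where the means were 1553 and 864.5 CPM. At CT0 and CT32 the means differed by 2.03-fold and 5.57-fold with overlapping ranges. PerDKO lay below WT without overlap at 6 time points, CT0, CT4, CT8, CT20, CT24 and CT28, where the mean was 3.90-fold to 13.2-fold lower. At CT36 and CT40 PerDKO lay above WT without overlap, by 2.89-fold and 1.49-fold. The remaining 4 time points, CT12, CT16, CT32 and CT44, overlapped. PerDKO and BMALKO overlapped only at CT32, where the low BMALKO sample lay.

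No rhythm passed the threshold in either mutant. The nonparametric rhythm test JTK_CYCLE was run at periods of 24, 16 and 12 hours on counts divided by size factors, and a gene was called at a q value (p adjusted over all genes by Benjamini-Hochberg) under 0.2. In PerDKO, Elovl3 had q = 1 at 24 hours, where 0.0864% of 9258 genes were called, and q = 0.316 at 16 hours, where 4.73% were called. At 12 hours q was 1, and 0% of genes were called (681 genes had an unadjusted p under 0.05, and edgeR with cosine and sine terms called 6). In BMALKO it had q = 1 at 24 hours (0.0116% of 8586 genes called), q = 1 at 16 hours (0.0116% called) and q = 0.942 at 12 hours (0.14% called). The 16-hour q in PerDKO rested on single time points, since it was 0.113 without CT8, 0.185 without CT12, 0.193 without CT28 and 0.0356 without CT32, but between 0.204 (without CT44) and 1 (without CT40) without any 1 of the other 8 time points. It was between 0.364 and 0.763 without any 1 letter, and 0.123 without the 3 PerDKO libraries that stood apart. The fitted 24-hour cosine had an amplitude of 0.287 of the mean in PerDKO and 0.0573 in BMALKO.

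Elovl3 changed over the time points in PerDKO, with a difference between the days. The test of any difference among the 12 time points gave an adjusted p of 5.09e-05 in edgeR for PerDKO, in which 20.9% of genes were called, and of 1 for BMALKO, in which 1.31% were called. From the first day (CT0 to CT20) to the second (CT24 to CT44), the PerDKO mean rose from 63.9 ± 46.6 CPM (SD, 22 libraries) to 155.3 ± 62.7 CPM (24 libraries), with medians of 56.7 and 157.5 CPM. The log2 change was 1.35 in edgeR (adjusted p = 2.53e-06), and 24.9% of genes were called (12.6% higher and 12.4% lower). At all 6 circadian hours the second-day mean was the higher, without overlap at CT24 against CT0, CT36 against CT12 and CT40 against CT16, by 3.25-fold, 2.00-fold and 6.26-fold.

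In the other genotypes the change of Elovl3 between the days did not pass the threshold. In WT the means of the days were 361.6 and 367.6 CPM, with a log2 change of -0.10 in edgeR (adjusted p = 0.882, 1.91% of genes called). In BMALKO they were 1459 and 1421 CPM, with a log2 change of -0.06 (adjusted p = 0.987 in edgeR, 0.0118% of genes called). Hour by hour, WT was higher at CT40 than at CT16 without overlap, by 1.70-fold, and its other 5 hours overlapped between the days, as did all 6 hours in BMALKO. The change in PerDKO exceeded that in WT by 1.45 on the log2 scale in edgeR (adjusted p = 0.000348, 17.7% of genes called), and that in BMALKO differed from WT by 0.04 (adjusted p = 0.99, 0.295% of genes called). Without the 3 PerDKO libraries that stood apart, all of the first day, the change within PerDKO was 1.11 on the log2 scale (adjusted p = 9.98e-06 in edgeR). The day of sampling coincides with time in darkness and with sampling order, which cannot be told apart.

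Samples of the same genotype and time point differed more in PerDKO. The mean absolute deviation of log2(CPM + 1) from the median of the time point was 0.73 in PerDKO, 0.35 in WT and 0.27 in BMALKO. By a two-sided permutation test of 100000 resamples, adjusted over 3 comparisons, PerDKO exceeded WT by 0.38 (adjusted p = 0.034) and BMALKO by 0.46 (adjusted p = 0.0086), while BMALKO and WT differed by -0.08 (adjusted p = 0.45). The excess over WT was not past 0.05 without any 1 letter (0.18 to 0.41, adjusted permutation p between 0.055 and 0.31) or without sample A of CT12 (0.30, adjusted permutation p = 0.075), samples C of CT4 and CT8 (0.23, adjusted permutation p = 0.15) or all 3 (0.14, adjusted permutation p = 0.34). That over BMALKO was past 0.05 without letter C but not without letter A, B or D (adjusted permutation p = 0.099, 0.082 and 0.079) or without all 3 samples (0.23, adjusted permutation p = 0.097), which had been picked by this same deviation. Without sample A of CT44 the excess over WT was 0.45 (adjusted permutation p = 0.004), and without sample C of CT32 that over BMALKO was 0.52 (adjusted permutation p = 0.0006). By the SD of log2 levels within time points, Elovl3 ranked 16 among the 4331 PerDKO genes with a mean of at least 20 CPM, 72 of 4308 in WT and 179 of 4232 in BMALKO.

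The genes whose level followed that of Elovl3 most closely over the 48 WT libraries were found by Pearson r of log2(normalized count + 1), among 11262 other genes that passed a minimum of 2 counts in a share of 0.5 or more of the WT libraries. The libraries share their time points and differ in depth (r of Elovl3 with depth was -0.36 in WT), so r describes a shared course over the 2 days and carries no test. Of all genes, 379 had r above 0.5 and 335 below -0.5. Mreg (melanoregulin, a regulator of organelle transport) came first with r = 0.88 and a Spearman rho of 0.89, and with r = 0.91 without the 2 WT libraries farthest from the Elovl3 median. Rnf125, a ubiquitin ligase, followed with r = 0.86 and rho = 0.88. Adck3, a kinase-like protein of coenzyme Q synthesis, had r = 0.85 and rho = 0.83. Mug-ps1, a pseudogene whose reads may be shared with its murinoglobulin relatives, also had r = 0.85. Others among the 10 were Asap2 (a regulator of ARF proteins, r = 0.84), Ethe1 (an enzyme of sulfide oxidation in mitochondria, 0.83), Fermt2 (kindlin-2, an activator of integrins, 0.83), Tjp3 (a tight junction protein, 0.83) and Eps8l2 (an actin regulator, 0.83).

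Genes in the opposite phase were led by Efhd2, a calcium-binding protein of the actin skeleton, with r = -0.87 and rho = -0.88. Por, the reductase that passes electrons to microsomal cytochrome P450 enzymes, had r = -0.86, rho = -0.88 and r = -0.89 without the 2 farthest libraries. Coq10b, a coenzyme Q binding protein of mitochondria, had r = -0.84 and Tor1a, an ATPase of the endoplasmic reticulum and nuclear envelope, r = -0.84. Clock genes stood next to them, with r = -0.82 for Per1 and -0.81 for Tef, a transcription factor of the PAR bZIP family. Gys2, the liver glycogen synthase, and Wee1, a kinase that restrains entry into mitosis, each had r = -0.81, as did Tor1b, and Tmem120a had r = -0.80.

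These lists depended on the libraries used. Ranked by Spearman rho, 5 of the 10 genes with the highest r were again among the first 10, and without sample A of CT44 it was also 5. Leaving out 1 letter kept 4 to 8 of them, and taking the mean of each time point off both genes kept 0. Of the 10 lowest, 7 were again among the last 10 by rho, 4 without sample A of CT44 and 0 with time-point means taken off. Without sample A of CT44 the highest r belonged to Clpx, a chaperone of mitochondria (0.92, named after its value had been seen), and the lowest to Coq10b (-0.90). The same 10 genes had r between 0.80 and 0.91 without sample A of CT44.

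**Figure D2:**
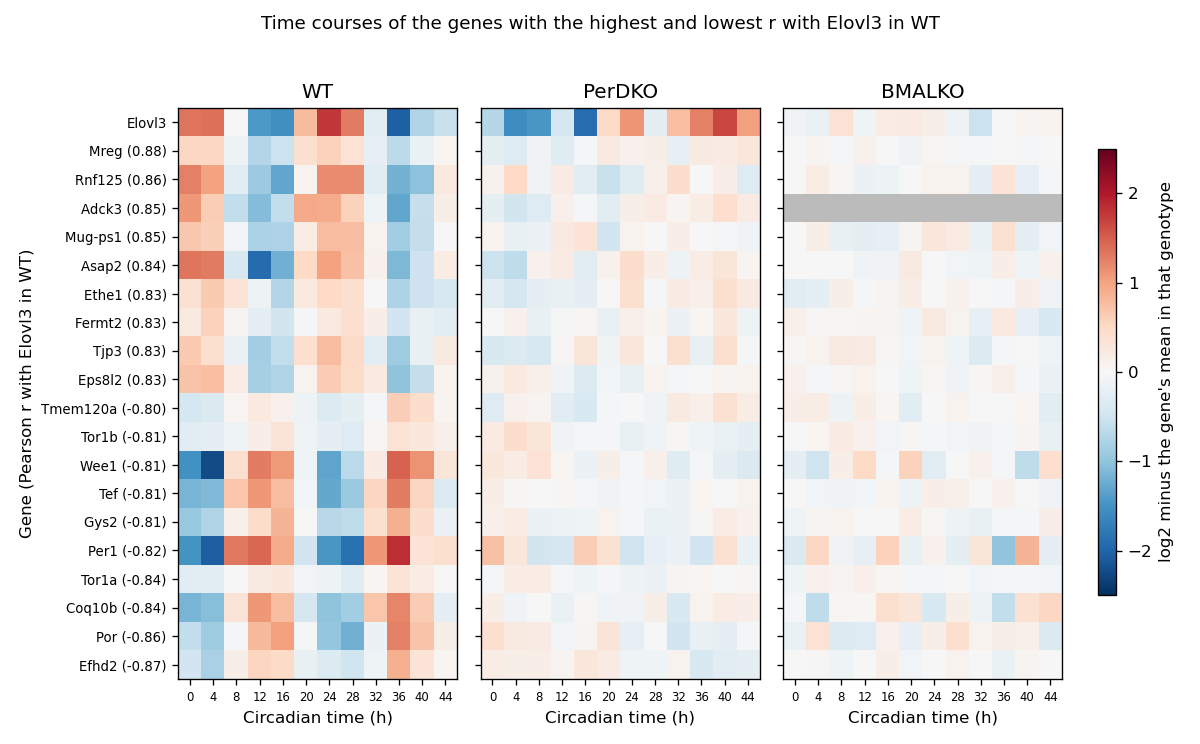
Mean log2 level of Elovl3 and of genes among the 10 with the highest (9 shown) and the 10 with the lowest r in WT, by circadian time in hours, in WT, PerDKO and BMALKO, each row less its mean in that genotype (colour, red above and blue below). The order by r in WT, from 0.88 for Mreg to -0.87 for Efhd2, separates 2 phases in WT. Adck3 is not listed under that symbol in BMALKO (grey).

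In the mutants the same 20 genes had r nearer to 0 as groups. The 10 genes highest in WT had a median r of 0.41 in PerDKO, with the lowest, -0.02, for Eps8l2, and a median of 0.18 in BMALKO over the 9 listed there. Adck3 is listed in the BMALKO table under its newer symbol Coq8a, with r = 0.17. The 10 genes lowest in WT had a median r of -0.28 in PerDKO (-0.05 without the 3 libraries that stood apart) and -0.03 in BMALKO. Without sample C of CT32 the 9 genes had a median of -0.05 in BMALKO. Gys2, at -0.81 in WT, had r = 0.49 in PerDKO (0.30 without the 3 libraries that stood apart) and 0.45 in BMALKO (0.11 without sample C of CT32). Whether r differed between genotypes was not tested.

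In PerDKO the genes closest to Elovl3 were others, several of them abundant liver enzymes. Mgst1, a microsomal glutathione transferase, came first with r = 0.94, followed by Car3 (r = 0.91), Cyp4a12a, a fatty acid hydroxylase of male liver (r = 0.90), Mup21, a major urinary protein (r = 0.89), and Cml5 (r = 0.89). Without the 3 PerDKO libraries that stood apart these 5 had r between 0.79 and 0.88, with the low samples A and D of CT16 still included. The lowest were Ppap2c, a lipid phosphatase (r = -0.82), App, the amyloid precursor protein (-0.78), Vimp (-0.77), Tm4sf4 (-0.77) and Gnb2l1, a ribosomal scaffold protein (-0.76). Without the same 3 libraries these 5 lay between -0.68 and -0.51. In all, 800 of 11215 genes had r above 0.5 in PerDKO, and 430 without those 3 libraries.

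In BMALKO, where time points differed least, the highest r belonged to Cyp2d9, a male-specific P450 (0.82), and to Ces2e, Ces3a, Aox3 and Ces1e, carboxylesterases and an aldehyde oxidase (0.78, 0.77, 0.76 and 0.73). Cyp17a1, a steroid hydroxylase, had the lowest (r = -0.84), followed by the sulfotransferase Sult1a1 (-0.82), Mat1a (-0.73) and Ahcy (-0.71), both of methionine metabolism, and the carbonyl reductase Cbr1 (-0.71). Sample C of CT32 carried part of these values. Without it r was 0.46 for Cyp2d9 and -0.59 for Cyp17a1, the 5 highest lay between 0.44 and 0.62 and the 5 lowest between -0.74 and -0.50, and 35 genes in place of 114 had r above 0.5.

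Of 29 other genes listed for fatty acid elongation and desaturation, 21 were tested, and 9 rose and 3 fell in PerDKO against WT (median log2 fold change 0.08, against 0.00 over all genes), while 11 rose and 4 fell in BMALKO (median 0.18, against -0.01). Over all genes 35.6% were higher and 35.1% lower in PerDKO, and 37.4% higher and 39.5% lower in BMALKO. Tecr alone of the 21 fell in PerDKO and rose in BMALKO as Elovl3 did, a pair of calls made for 7.48% of all genes. Of the 4 other elongases tested, none fell in PerDKO and rose in BMALKO. Elovl5, which elongates polyunsaturated chains, fell in both mutants, by 0.24 on the log2 scale in PerDKO (edgeR adjusted p = 0.0053, 315 against 354 CPM in WT) and by 0.57 in BMALKO (adjusted p = 3.43e-10, 230 CPM). Elovl6, which extends saturated chains from palmitate, rose by 0.62 in PerDKO (edgeR adjusted p = 0.000181, 32.8 against 20.5 CPM) and differed by -0.27 in BMALKO (adjusted p = 0.109). Elovl1 rose by 0.58 in BMALKO (edgeR adjusted p = 3.43e-25) and differed by 0.04 in PerDKO (adjusted p = 0.36). Elovl2 fell by 0.22 in BMALKO (edgeR adjusted p = 0.000189) and differed by 0.12 in PerDKO (adjusted p = 0.052). Levels of different genes are not compared here, since a CPM value of 3' tags is not corrected between genes.

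The later enzymes of the cycle differed from WT by less than Elovl3 did. Hsd17b12, the ketoacyl reductase, rose by 0.15 in PerDKO and 0.51 in BMALKO on the log2 scale (edgeR adjusted p = 0.00112 and 7.83e-21). Tecr, the enoyl reductase, fell by 0.15 in PerDKO (edgeR adjusted p = 0.00262) and rose by 0.22 in BMALKO (adjusted p = 1.69e-05). The dehydratase genes differed in direction, since Hacd1 fell in both mutants, by 0.79 and 0.54, and Hacd2 rose in both, by 0.24 and 0.72. Scd1, the main liver desaturase, rose by 0.40 in PerDKO (edgeR adjusted p = 0.0145) and fell by 0.90 in BMALKO (adjusted p = 7.28e-08), the reverse of Elovl3 in both mutants. The rise of Scd1 in PerDKO was not past 0.05 without letter A (0.19) or letter B (0.29).

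**Figure D3:**
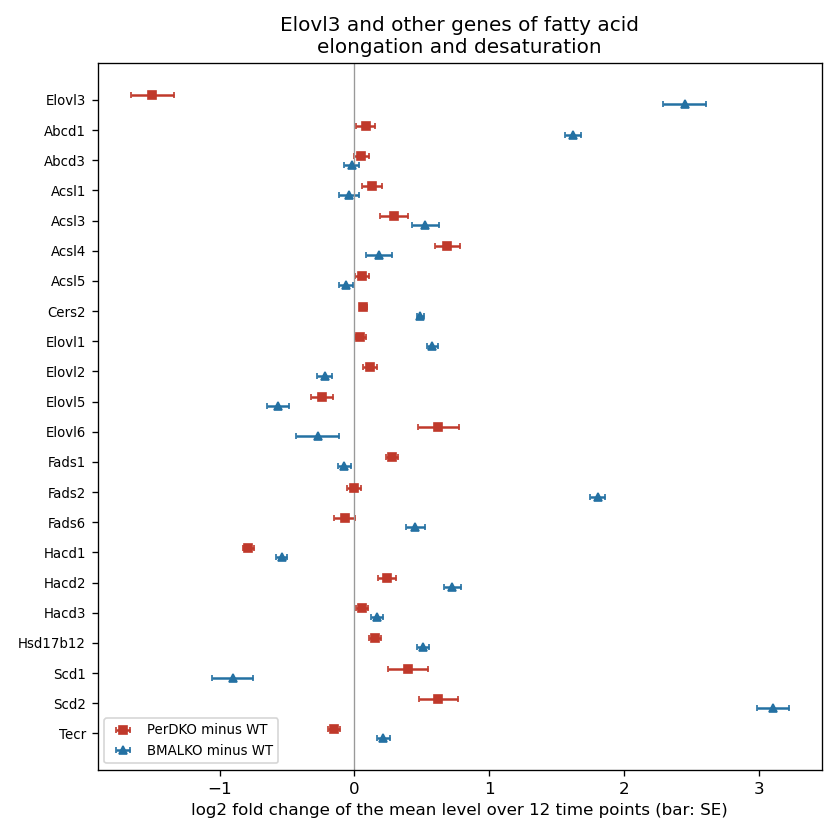
Log2 fold change of the mean level over 12 time points against WT, with its SE, for Elovl3 and 21 genes of fatty acid elongation, desaturation and activation in PerDKO (red squares) and BMALKO (blue triangles). Elovl3 lies at -1.50 and 2.45, and of the other ELOVL genes none lies beyond 0.62 in PerDKO or 0.58 in BMALKO.

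In PerDKO, 14 of these 21 genes rose from the first to the second day and 0 fell (median log2 change 0.29, against -0.02 over all genes, of which 12.6% rose and 12.4% fell). Elovl3 rose as well. Scd1 rose by 1.67, Elovl6 by 1.26, Elovl5 by 0.91 and Fads2, a desaturase of polyunsaturated chains, by 0.62. Without the 3 PerDKO libraries that stood apart the count was 11, and without letter C it was 9. Over the PerDKO libraries 10 of 23 genes of the list had r with Elovl3 above 0.5 (median 0.42), against 7.13% of all genes, led by Acsl1, an acyl-CoA synthetase (0.84), Abcd3, a peroxisomal transporter (0.82), and Hsd17b12 (0.80). The medians in WT and BMALKO were 0.10 and 0.06, with 0 genes above 0.5 in either (1 in BMALKO without sample C of CT32).

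Most of the tested genes known to be repressed by REV-ERB in liver rose in BMALKO, as Elovl3 did. Nr1d1, the gene of REV-ERB alpha, averaged 90.4 CPM in WT, 29.0 CPM in PerDKO and 1.83 CPM in BMALKO, a log2 fold change of -4.47 for BMALKO and -0.50 for PerDKO (edgeR adjusted p = 8.73e-59 and 1.44e-07). Of 6 tested genes of the REV-ERB list, 5 rose and 0 fell in BMALKO (median log2 fold change 1.32), where 37.4% of all genes rose and 39.5% fell (median -0.01). Among them were Cry1, a repressor of the clock (2.14), Insig2, which restrains the processing of SREBP (1.64), Avpr1a, the vasopressin receptor (63.8 against 25.2 CPM), and Nfil3, a repressor of the bZIP class (0.38). Arntl, deleted in these mice, differed by 0.12 (adjusted p = 0.161 in edgeR). In PerDKO 3 of the 6 rose and 2 fell (median 0.05), against 35.6% and 35.1% of all genes, and with genotype means in place of time-point means 0 rose and 3 fell. The same replacement left 4 risen and 1 fallen in BMALKO. The drop of Nr1d1 was unlike in the 2 mutants, to 29.0 CPM in PerDKO and to 1.83 CPM in BMALKO. Elovl3 fell in PerDKO and rose in BMALKO. Whether the level of Nr1d1 has a part in that of Elovl3 was not tested.

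Over the WT libraries, 4 of the 7 genes of this list with a value had r with Elovl3 above 0.5 (median 0.62, range -0.09 to 0.80), against 3.37% of all genes: Insig2 (0.80), Avpr1a (0.77), Arntl (0.68) and Nfil3 (0.62). Insig2 reached 0.89 without sample A of CT44. The medians in PerDKO and BMALKO were 0.05 and 0.04. Because Elovl3 was chosen by its rhythm in WT, genes under a clock repressor are likely to share its course there. The share of all genes is thus no fair baseline for the WT count. With time-point means taken off, 0 of the 7 lay above 0.5 in WT (median 0.22). Insig2 went from 97.7 CPM in WT to 270.2 CPM in BMALKO and 105 CPM in PerDKO.

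Among 17 circadian regulators with a value, 8 had r below -0.5 with Elovl3 in WT and 2 above 0.5 (median -0.49), against 2.97% and 3.37% of all genes. Those in the opposite phase were Per1 (-0.82), Tef (-0.81), Per3 (-0.79), Ciart (-0.79), Dbp (-0.70), Per2 (-0.65), Cry2 (-0.63) and Hlf (-0.55). Nr1d1 itself, with a fitted peak at 7.45 h, had r = -0.13 over the WT libraries. The medians in the mutants were 0.05 in PerDKO and 0.03 in BMALKO. Elovl3 was chosen by its rhythm in these same WT libraries, and circadian regulators are likely to cycle there too. The shares of all genes are thus no fair baseline for the WT counts, which only describe a shared daily course. With time-point means taken off, 0 of the 17 lay above 0.5 and 0 below -0.5 in WT (median 0.04). Of 12 tested regulators, 6 rose and 4 fell in PerDKO (median log2 fold change 0.12, against 35.6% and 35.1% of all genes) and 6 rose and 3 fell in BMALKO (median 0.24, against 37.4% and 39.5%). The counts became 4 and 5 in PerDKO and 3 and 5 in BMALKO with genotype means in place of time-point means. The directions of Dbp and Cry1 in PerDKO and of Per2 in BMALKO turned under the same replacement.

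**Figure D4:**
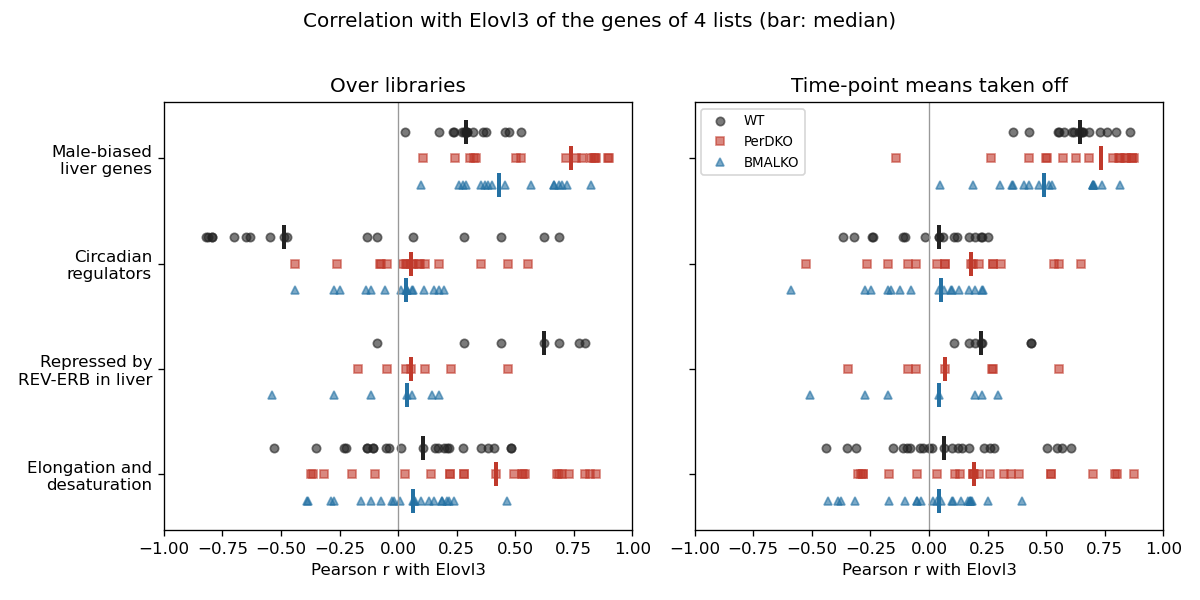
Pearson r with Elovl3 of each gene of 4 lists (points) and the median of the list (bars), over the libraries of WT (black), PerDKO (red) and BMALKO (blue), as measured (left) and with the mean of each time point taken off (right). Medians of the male-biased list were 0.29, 0.74 and 0.43 on the left and 0.64, 0.73 and 0.49 on the right.

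Within time points, Elovl3 varied together with genes that are higher in male than in female liver. Of 16 such genes, 14 had r above 0.5 over the 48 WT libraries after the time-point means were taken off (median 0.64, against -0.01 over all genes, of which 1.75% passed 0.5), compared with 1 gene and a median of 0.29 before. Without sample A of CT44 it was 9 genes, with a median of 0.51. In PerDKO 13 of 16 passed 0.5 within time points, against 6.13% of all genes (median 0.73, and 9 genes with a median of 0.58 without the 3 libraries that stood apart). In BMALKO it was 8 of 16, against 1.55% of all genes (median 0.49), and 0 without sample C of CT32 (median 0.32). Pulses of growth hormone are a known input to many of these genes. Several, such as the Mup genes and the pair Cyp4a12a and Cyp4a12b, have near-identical copies between which reads may be divided.

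The levels of this group went the way of Elovl3 in PerDKO and less evenly in BMALKO. Of 16 tested genes, 11 fell and 2 rose in PerDKO against WT (median log2 fold change -0.87), where 35.1% of all genes fell and 35.6% rose (median 0.00). In BMALKO 9 rose and 4 fell (median 0.61), against 37.4% and 39.5% of all genes (median -0.01). Hsd3b5, a steroid-metabolizing enzyme of male liver, averaged 179 CPM in WT, 63.9 CPM in PerDKO and 391 CPM in BMALKO, log2 fold changes of -1.81 and 1.23 (edgeR adjusted p = 1.63e-17 and 1.95e-11). Cyp7b1, an oxysterol hydroxylase, had 101, 25.8 and 282 CPM, changes of -2.14 and 1.51 (edgeR adjusted p = 7.58e-23 and 1.22e-16). Mup21 likewise fell by 1.20 and rose by 1.65. Cyp4a12a and Serpina1e, a protease inhibitor, fell in both mutants, by 0.96 and 0.85 in PerDKO and by 1.26 and 1.87 in BMALKO. Mup3 rose in both, by 0.55 and 0.69. In PerDKO 9 of the 16 rose and 0 fell from the first day to the second (median 0.52), against 12.6% and 12.4% of all genes (median -0.02). Among them were Mup21 (1.60), Hsd3b5 (1.57) and Cyp7b1 (1.05), and the count was 7 without the 3 PerDKO libraries that stood apart.

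**Figure D5:**
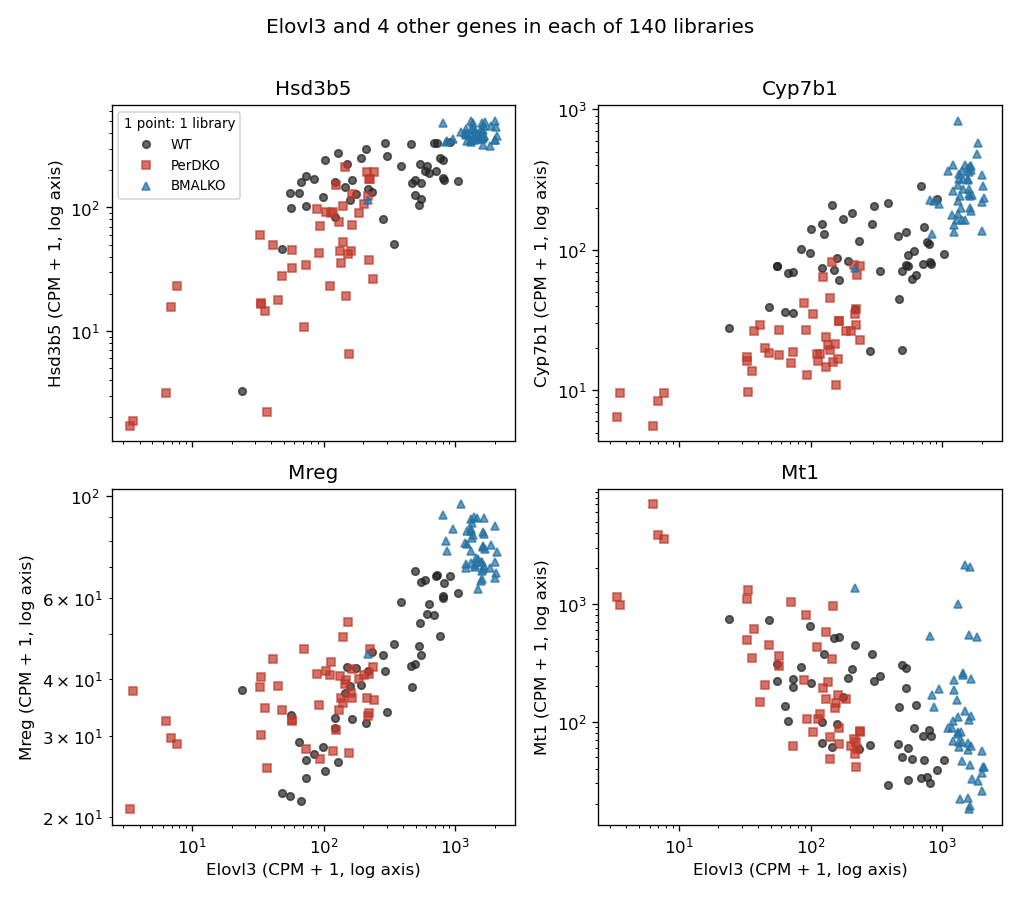
CPM + 1 of Hsd3b5, Cyp7b1, Mreg and Mt1 against that of Elovl3 (both axes log) in each of 140 libraries of WT (black circles), PerDKO (red squares) and BMALKO (blue triangles). In PerDKO, r with Elovl3 was 0.76 for Hsd3b5, 0.72 for Cyp7b1, 0.50 for Mreg and -0.75 for Mt1. Mt1 was picked as high in libraries with little Elovl3.

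Mt1, which encodes a metallothionein induced by metals and glucocorticoids, ran against Elovl3. It and the other genes of this paragraph and the next were chosen after their values had been seen. Mt1, Mt2, Lcn2, Saa1, Saa2 and Fgf21 were picked as response genes high in the libraries with least Elovl3. A negative r thus follows in part from that choice and is no separate support. Over the PerDKO libraries r of Mt1 with Elovl3 was -0.75 (-0.65 in WT and -0.43 in BMALKO), and -0.78 without the 3 PerDKO libraries that stood apart. Samples A and D of CT16, also low in Elovl3, remain in that last value. At CT12 of PerDKO, samples A to D had 3862, 581, 116 and 104 CPM of Mt1, beside 5.96, 130.1, 117.6 and 92.3 CPM of Elovl3. At CT16 they had 7003, 146, 811 and 3541 CPM, beside 5.32, 40.0, 90.9 and 6.72 CPM of Elovl3. The order of the samples by Mt1 was thus not the exact reverse of that by Elovl3. Samples C of CT4 and CT8 had 1143 and 979 CPM. Lcn2, a lipocalin of the acute phase response, had r = -0.60 in PerDKO, -0.11 in WT and -0.40 in BMALKO. Saa1 and Saa2, also of the acute phase response, had weaker values of -0.16 and -0.27 in PerDKO. In WT they had r = 0.02 and 0.05, and in BMALKO 0.01 and -0.03. Of the other response genes picked with them, Mt2 had r = -0.70 and Fgf21 -0.40 in PerDKO. Without sample C of CT32 the BMALKO values were -0.29 for Mt1 and -0.25 for Lcn2. The mean of Lcn2 was 312 CPM in PerDKO, 47.9 CPM in WT and 36.6 CPM in BMALKO, and whether its level has a part in that of Elovl3 was not tested.

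A gene known to be higher in female liver was counted in all PerDKO libraries. Cyp2b9, a P450 of female liver, had 61.7 CPM in C of CT4 and 114 CPM in C of CT8, with means of 35.0 CPM in PerDKO, 0.67 CPM in WT and 1.44 CPM in BMALKO. The Y-linked genes Eif2s3y and Kdm5d had counts in all 140 libraries. Of 20 genes on the female-biased list, 5 had a value of r and 2 were tested, so the list was not described further. Cyp2b9 is a single member and does not describe the list. Whether its level goes with that of Elovl3 was not tested.

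Markers of other cell types moved with Elovl3 in part. In PerDKO the sum of the 5 stellate cell and fibroblast markers ranged from 63.5 to 368 CPM (median 138 CPM) and had r = -0.50 with Elovl3, and the sum of 8 Kupffer cell and leukocyte markers (347 to 1789 CPM, median 552 CPM) had r = -0.38. Without the 3 PerDKO libraries that stood apart these were -0.25 and -0.28. The 3 PerDKO libraries that stood apart had stellate sums of 190.5 to 368 CPM. In WT these sums had r of 0.06 and 0.04, and in BMALKO -0.03 and 0.08. Kupffer cell and leukocyte markers were also lower in BMALKO, where 7 of them summed to between 97.3 and 320 CPM (median 179 CPM), against 331 to 1386 CPM over 8 in WT (median 507 CPM). The 4 that were tested all fell, with a median log2 fold change of -1.58, in the comparison in which Elovl3 rose. In that comparison 39.5% of all genes fell. The 4 cholangiocyte markers summed to between 6.12 and 23.0 CPM in every library, with r = 0.54 in WT. Adipocyte and brown fat markers, of a tissue that also expresses Elovl3, had median sums of 0.32 CPM over 2 genes in WT, 0.49 CPM over 1 gene in PerDKO and 0 over 4 genes in BMALKO. Their sums reached 13.0 CPM in a WT library, 36.7 CPM in a PerDKO library and 223 CPM in a BMALKO library, with r of -0.20, 0.22 and 0.04. Their part in the level of Elovl3 was not tested.

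Of 21 tested regulators of lipid and hormone signalling, 9 rose and 7 fell in PerDKO and 7 rose and 8 fell in BMALKO (median log2 fold changes -0.04 and 0.01). These counts lie near the shares of all genes, 35.6% higher and 35.1% lower in PerDKO and 37.4% and 39.5% in BMALKO. Stat5b, which relays growth hormone to male-biased genes, had r = 0.82 with Elovl3 over the WT libraries. Elovl3 was chosen by its rhythm in these same libraries, so that r only describes a shared course. Stat5b rose by 1.08 in BMALKO (113.7 against 55.6 CPM, edgeR adjusted p = 3.49e-51) and by 0.14 in PerDKO (adjusted p = 0.000669). Igf1, a target of growth hormone signalling, fell by 2.77 in BMALKO (59.9 against 412 CPM, edgeR adjusted p = 1.17e-67) and by 0.20 in PerDKO (adjusted p = 0.00185). Ppard, a lipid-sensing receptor, followed the direction of Elovl3 in both mutants. It fell by 1.75 in PerDKO (6.58 against 27.6 CPM, edgeR adjusted p = 7.23e-35) and rose by 1.53 in BMALKO (62.0 CPM, adjusted p = 7.35e-38). That pair of calls was made for 7.48% of all genes. The genes named here are single members and do not describe the list.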

How the data were processed

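The authors counted molecules (unique molecular identifiers) per gene in bulk MARS-seq libraries with HTSeq after trimming with cutadapt and alignment with STAR to mm10, and deposited raw counts in 3 tables, 1 per genotype. The WT and PerDKO tables also hold a normalized signal that the authors deposited (counts over a factor per library) and columns of comparisons, and none of these were used. Members and gene lists were chosen with earlier results of these data known. Libraries were assigned to genotype and time point from the labels. Tables were joined by gene symbol. Some genes carry newer symbols in the BMALKO table, of which 5 named here were looked up by RefSeq synonyms. Of the 11262 other genes with r in WT, 11215 had a value under the same symbol in PerDKO and 10413 in BMALKO. How many of the rest were renamed was not counted. A gene listed under differing symbols is absent from the edgeR tests.

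Levels, days and change over time were tested on the deposited counts with edgeR 4.0.16 in R 4.3.3 (quasi-likelihood, TMM, 36 group means) for 8473 genes, those counted (1 or more) in each of the 140 libraries, after the filter of the study, at an adjusted p of 0.05 (Benjamini-Hochberg). This filter leaves out genes that are at 0 in any library. JTK_CYCLE was written anew and used counts over median-of-ratios size factors computed within each genotype, with q under 0.2. Several reference cosines were tried, and the one whose p-values matched those in the paper's supplement was kept. The 16-hour rhythm of Elovl3 in PerDKO was not called under any of them. Spread was tested by 100000 permutations in NumPy 2.4.6. Correlations used log2(normalized count + 1). Named genes were Elovl3, list members, the 10 highest and 10 lowest by r in WT and the 5 highest and lowest in each mutant. A few genes that this rule names are not reported here. Depth was 1442278 to 5643470 counts per library, which sets the counting intervals given. No 2 libraries of a group agreed within sampling noise. Scripts were tested on simulated data. Letters A to D paired no samples (mean r of deviations 0.01 to 0.02). Alternatives were DESeq2 1.42.0, other filters and scalings, genotype means, letter as a term, and leaving out letters, time points or libraries.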

Additional observations from a re-analysis of the deposited data

Results flagged for a closer look

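Sample B of WT at CT24 had 1037.0 CPM of Elovl3, far above the other 3 samples of its time point, which had 798.4 to 817.9 CPM. It was the only 1 of 32 groups of 4 samples in which the highest or lowest sample stood apart by Dixon's criterion. Chance gives about 1 in 20 such groups. The 4 groups of 3 samples were not examined.

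The change of Elovl3 from the first day to the second differed between PerDKO and WT by 1.45 on the log2 scale in edgeR (adjusted p = 0.000348). It rested on a rise from 63.9 to 155.3 CPM in PerDKO and means of 361.6 and 367.6 CPM in WT.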

How the results depend on the processing

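The called level differences of Elovl3, and in PerDKO its change over time points and between days, kept their direction and their call under every alternative run. With letter as a replicate block, the log2 fold change was -1.51 for PerDKO against WT and 2.45 for BMALKO against WT, and the block changed no such call. The letters share only a name: 11 of 46 pairs of WT and PerDKO had a correlation of deviations over 0.1. The 16-hour q in PerDKO, 0.316, was 0.113, 0.185, 0.193 and 0.0356 without CT8, CT12, CT28 and CT32, between 0.204 and 1 without any 1 other time point, and 0.123 without samples C of CT4, C of CT8 and A of CT12 (all chosen after seeing the data). The excess spread of PerDKO ranged from 0.18 to 0.41 over WT and from 0.33 to 0.47 over BMALKO without 1 letter. Over WT it was 0.23 without samples C of CT4 and CT8, 0.30 without A of CT12 and 0.14 without all 3, and over BMALKO 0.23 without all 3. Of the 10 genes most like Elovl3 in WT, 5 were shared by Spearman rank, 4 to 8 without 1 letter, 5 without sample A of CT44 and 0 with time-point means taken off. Under genotype means without time points, log2 changes reversed for Per2, Saa1 and Saa2 in BMALKO against WT (-0.058, 0.25 and 1.09) and for Cry1 and Dbp in PerDKO against WT (-0.16 and -0.090). Clec4g in PerDKO against WT ranged from -0.26 to 0.0021 without 1 letter, the sign turning without letter C. The causes were not tested. Over all genes, 131 of 286 counts of calls moved by more than 1.5 times. The 12-hour calls in BMALKO ranged from 0 to 542, the 16-hour calls in PerDKO from 0 to 1107 and the 24-hour calls in PerDKO from 0 to 179. Depth limits the lowest Elovl3 values, which rest on 10 to 70 counts.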
